A study of Rattus norvegicus with 6 samples.

Results

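The genes described here are the inhibitors of the cyclin-dependent kinases (CDKs) and the factors that turn them over, 10 genes of the 27103 with a name in the array files. They were chosen by name: *Cdkn1a*, *Cdkn1b* and *Cdkn1c* (the CIP/KIP family), *Cdkn2a*, *Cdkn2b*, *Cdkn2c* and *Cdkn2d* (the INK4 family), *Cdkn3*, *Skp2* and *Cks1b*. All 10 were on the array, with 16 probes. The samples were β-cells of young adult male Wistar rats, whose isolated islets were cultured overnight with EdU, a thymidine analogue built into newly made DNA. The islets were dispersed, stained with the zinc dye Newport Green, fixed and sorted by size, granularity and dye. EdU-positive β-cells were the replicating group and EdU-negative β-cells the quiescent group, so an EdU-positive cell is one that copied DNA at some time during that culture, whatever its stage when it was fixed. Each of 3 islet preparations pooled 4 rats and gave 1 array of each group. No other treatment or genotype was compared.

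CDKs bound to cyclins drive the cell through the G1, S, G2 and M phases. CIP/KIP proteins bind cyclin and CDK together and act on many CDK complexes, mainly those of CDK2, whereas INK4 proteins bind CDK4 and CDK6 and keep D-type cyclins from activating them. SKP2 is the part of an SCF ubiquitin ligase that recognizes phosphorylated p27, the product of *Cdkn1b*, and CKS1B is the small protein it needs to do so. In β-cells, CDK4 with cyclin D2 is known as the main entry point into the cycle, and p16, a product of *Cdkn2a*, is known to accumulate with age. CDKN3 carries an inhibitor's name but is a phosphatase that acts on CDKs.

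Values are the deposited log2 values, and a log2 ratio is replicating minus quiescent, fitted over all probes by limma with the preparation as a block. A gene was called when its unadjusted p was at most 0.05 and its change at least 2-fold, thresholds that the study also used. A gene with several probes is given by the brightest over all arrays, and the other probes of a member beside it. By this rule 4.24% of all genes were called higher and 4.69% lower, and 8.61% of all probes in either direction, with 4.44% of all probes higher. At these thresholds the study reported more genes, with more of them higher than lower in replicating cells. The reason for this difference was not tested. After Benjamini-Hochberg adjustment over all probes limma called 0 of 45598 at an adjusted p under 0.05, against 4379 (9.6%) at an unadjusted p under 0.05, so every call below is unadjusted. The called probes were 51.5% higher, but 17.2% and 21.4% under the processed signal and under normexp values scaled to the 75th percentile of each array, which moved the median ratio of all probes from -0.07 to -0.71 and -0.39. Quiescent array 2 stood apart: its Pearson's r over all probes was between 0.654 and 0.830 with the other quiescent arrays and between 0.672 and 0.709 with the replicating ones, while all other pairs were between 0.867 and 0.986. Quiescent array 3 was closer to the replicating arrays (0.943 to 0.969) than to quiescent array 1 (0.867). Quiescent array 1 had 0.869 to 0.887 with the replicating arrays. Members and called partner genes whose call or direction changed without preparation 2 are given with and without it. The proliferation genes *Mki67*, *Pcna* and *Top2a* were called higher in the replicating group, with log2 ratios of 2.33, 1.68 and 3.76, and the other *Mki67* probes had between 2.35 and 3.29. Without preparation 1 neither *Mki67* nor *Pcna* was called (2.36 and 1.58), nor was *Mki67* without preparation 3 (1.45).

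Of the 10 genes, 4 were called higher in replicating β-cells and 0 lower: *Cdkn3*, *Cks1b*, *Cdkn1a* and *Cdkn2c*. The remaining 6 were not called in either direction. Of the 16 probes 6 were called, all higher. The ratio was above 0 for 9 of the 10 and above 0 in every preparation for 7, against 14.2% of all genes. The groups did not overlap for 6 of the 10, with the replicating arrays higher each time, against 8.44% of all genes. Their median log2 ratio was 1.23, against -0.13 over all genes. The smallest adjusted p was 0.109. The range was wider on the quiescent than on the replicating arrays for 8 of the 10, all but *Cdkn2c* and *Skp2*, and for 86.9% of all genes.

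**Figure D1:**
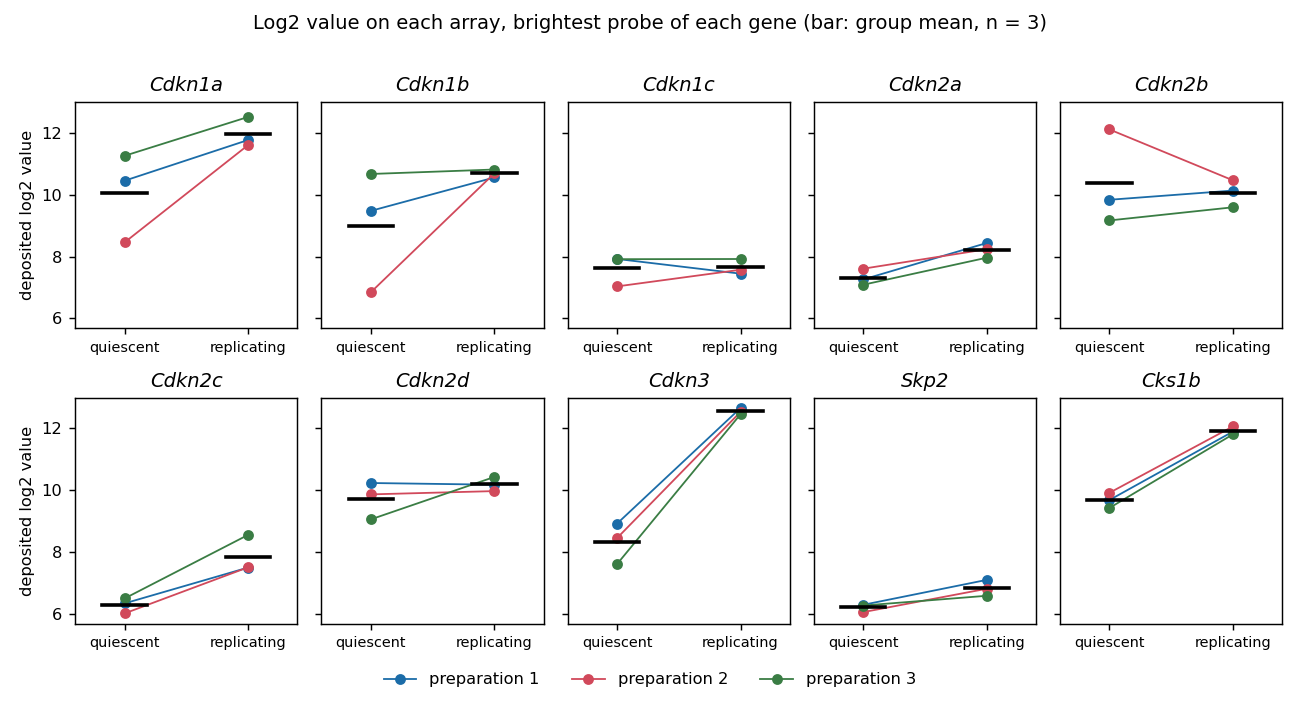
Deposited log2 value (y axis) on each quiescent and replicating array for the brightest probe of each gene; lines join the arrays of 1 islet preparation and black bars are group means. Every line goes up for 7 of the 10 genes, all but *Cdkn1c*, *Cdkn2b* and *Cdkn2d*. The lines of *Cdkn1a* and *Cdkn1b* differ in slope between preparations, with quiescent values from 8.46 to 11.26 and from 6.84 to 10.67.

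*Cdkn3* had the largest difference. CDKN3, also called KAP, removes the activating phosphate from the T-loop of CDK2 and CDK1 once the cyclin has left. Its single probe (rn4 chr15:22624438-22624497) read 12.66, 12.54 and 12.46 on replicating arrays 1, 2 and 3. On the quiescent arrays it read 8.92, 8.46 and 7.61. The replicating arrays lay within 0.20 of each other, and the lowest of them was far above the highest quiescent array. This gave a log2 ratio of 4.22 (18.7-fold, standard error 0.36), made up of 3.74, 4.08 and 4.84 in preparations 1, 2 and 3. Limma gave an unadjusted p of 6.9e-05, number 28 among all probes by p, and an adjusted p of 0.109. *Cdkn3* was called under all 14 alternatives, with ratios between 3.91 and 4.51.

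*Cks1b* had the next largest difference by the brightest probes. Besides serving SKP2, CKS1B binds CDKs directly and helps them phosphorylate targets at several sites. Its brightest probe (rn4 chr2:181613597-181613656) read 11.90, 12.07 and 11.81 on the replicating arrays. The same probe read 9.69, 9.92 and 9.43 on the quiescent arrays. Both groups were tight and did not overlap. The fitted log2 ratio was 2.25 (4.74-fold, standard error 0.30), with 2.21, 2.15 and 2.38 by preparation, an unadjusted p of 0.000632 and an adjusted p of 0.226 in limma. The second probe (rn4 chr2:181611663-181611722), gave a larger ratio of 3.67 (standard error 0.57), with 3.45, 5.11 and 2.44. Both probes were called, but their sizes differed by more than 1 log2 unit. The table of RefSeq genes also lists a gene *Cks1l* and a pseudogene *Cks1l-ps1*, and whether either probe binds their transcripts was not tested.

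*Skp2*, the partner of *Cks1b* in the same ligase, was not called. Its single probe (rn4 chr2:58769783-58769842) read 7.11, 6.82 and 6.59 on the replicating arrays. The quiescent values were 6.30, 6.06 and 6.28. The groups did not overlap, yet the difference was small and the probe was dim, with 2 of the 3 quiescent arrays well above background. Its log2 ratio was 0.63 (standard error 0.32, 95% interval -0.18 to 1.43), with an unadjusted p of 0.103 and an adjusted p of 0.477 in limma. It was above 0 in each preparation, at 0.81, 0.76 and 0.32. With normexp at an offset of 0 or 16, which adds less to dim probes, the ratio was 1.47 or 1.06 and *Skp2* was called (unadjusted p = 0.0255 and 0.0473 in limma).

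The upstream sequences of *Cdkn3*, *Cks1b* and *Skp2* are shown because the first pair differed strongly and *Skp2*, of the same ligase as *Cks1b*, did not pass. They are the 250 bases before the start in RefSeq (build GRCr8), 5′ to 3′ on the strand of the gene. Capitals mark letters of a cell cycle homology region (CHR, TTTGAA), known as a binding sequence of the DREAM and MuvB complexes in genes of G2 and M, and of a CCAAT box (CCAAT), known as a binding sequence of NF-Y, on either strand. *Cdkn3* lies on the plus strand (chr15:22502136-22502385, the first of 2 starts), *Cks1b* on the minus strand (chr2:177135334-177135583) and *Skp2* on the minus strand (chr2:59916472-59916721).
Cdkn3: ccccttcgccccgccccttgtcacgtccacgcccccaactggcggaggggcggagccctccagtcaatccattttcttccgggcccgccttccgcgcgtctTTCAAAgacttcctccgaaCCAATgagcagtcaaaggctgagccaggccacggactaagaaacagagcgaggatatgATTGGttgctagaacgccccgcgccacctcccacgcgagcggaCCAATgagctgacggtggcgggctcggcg
Cks1b: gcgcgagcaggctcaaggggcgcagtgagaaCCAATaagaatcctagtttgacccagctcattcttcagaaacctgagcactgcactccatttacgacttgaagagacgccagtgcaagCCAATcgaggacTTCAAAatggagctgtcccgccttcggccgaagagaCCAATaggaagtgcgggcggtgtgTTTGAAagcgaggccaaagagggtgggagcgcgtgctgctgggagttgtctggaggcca
Skp2: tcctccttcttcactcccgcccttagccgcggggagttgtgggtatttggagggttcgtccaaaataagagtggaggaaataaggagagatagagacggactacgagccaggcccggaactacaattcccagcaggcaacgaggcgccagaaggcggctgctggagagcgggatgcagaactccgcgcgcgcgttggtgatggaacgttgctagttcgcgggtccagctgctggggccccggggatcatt
*Cdkn3* held the CHR letters 1 time and CCAAT 3 times, *Cks1b* held CHR 2 times and CCAAT 3 times, and *Skp2* held neither. In the whole table of 33469 promoters, which run to 50 bases past the start, 18.3% held the CHR letters, 37.5% CCAAT and 7.41% both. RefSeq gave a promoter for 9 of the 10 genes, with *Cdkn1c* not among them. Elsewhere CHR letters stood in that of *Cdkn2b* and CCAAT in that of *Cdkn1b*, neither of which was called. The promoters of *Cdkn1a* and *Cdkn2c*, which were called, held neither, nor did those of *Cdkn2a* and *Cdkn2d*, which were not called. A match of letters is a description and not a tested binding site.

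*Cdkn1a* was the CIP/KIP gene that was called. Its product p21 restrains CDK2 while helping to assemble cyclin D with CDK4. The brightest probe, printed in 10 spots (rn4 chr20:7386596-7386655), read 11.77, 11.60 and 12.51 on the replicating arrays. The quiescent arrays gave 10.45, 8.46 and 11.26. Each replicating array lay above every quiescent array, with quiescent array 2 the lowest by a wide margin. For this probe the log2 ratio came to 1.91 (3.75-fold, standard error 0.49), with 1.32, 3.15 and 1.26 by preparation, an unadjusted p of 0.0109 and an adjusted p of 0.475 in limma. Without preparation 2 the ratio was 1.29 and was still called (unadjusted p = 0.0135). The second probe (rn4 chr20:7385506-7385565) gave 3.27 (standard error 0.83) with 2.48, 5.72 and 1.62, so that both probes had their largest ratio in preparation 2. *Cdkn1a* was called under all 14 alternatives, with ratios between 1.29 and 2.59.

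*Cdkn1b*, which encodes p27, the main substrate of SKP2 and CKS1B, was not called, and its difference came mostly from 1 quiescent array. The brightest probe (rn4 chr4:171845435-171845494) read 10.56, 10.69 and 10.81 on the replicating arrays. On the quiescent arrays it read 9.48, 6.84 and 10.67. The replicating arrays were nearly equal, the quiescent arrays spanned 3.82, and the groups overlapped. The log2 ratio was 1.69 (standard error 0.76, 95% interval -0.23 to 3.61), with 1.08, 3.84 and 0.14 in the preparations and an unadjusted p of 0.0739 in limma. Without preparation 2 it was 0.61 (unadjusted p = 0.200 in limma), and without preparation 3 it was 2.46 and called (unadjusted p = 0.0301 in limma). The second probe gave 1.66, with 1.47, 4.04 and -0.53, and so changed direction in preparation 3.

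*Cdkn1c* encodes p57, an inhibitor expressed from the maternal allele and known in β-cells from focal hyperinsulinism, in which its loss accompanies β-cell overgrowth. Its brightest probe (rn4 chr1:203835188-203835202 in the files) read 7.45, 7.57 and 7.92 on the replicating and 7.92, 7.04 and 7.92 on the quiescent arrays. The groups overlapped fully. The log2 ratio was 0.02 (standard error 0.35, 95% interval -0.87 to 0.92), which leaves changes of nearly 2-fold in either direction possible. It was -0.86 and -0.51 under the scalings to the 75th percentile, where the median of all probes shifted the same way, and -0.23 without preparation 2, and it was not called under any alternative. The second probe gave 0.33, with 0.58, -0.43 and 0.85.

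*Cdkn2c* was the INK4 gene that was called. It encodes p18, which binds CDK4 and CDK6 and is regulated by menin in endocrine cells. The probe (rn4 chr5:131013102-131013161) read 7.50, 7.51 and 8.56 on the replicating arrays. The quiescent values were 6.35, 6.02 and 6.50. The groups did not overlap, and replicating array 3 was the highest. The difference was 1.57 on the log2 scale (2.96-fold, standard error 0.34), with 1.16, 1.49 and 2.05 by preparation, an unadjusted p of 0.00555 and an adjusted p of 0.475 in limma. It was called under all 14 alternatives, at 1.32 to 2.73, the highest being normexp at an offset of 0. An offset of 16 gave 2.19. The quiescent values were close to those of *Skp2*, though well above background on all 3 arrays. Its promoter was the only one of the 9 with the letters GCGGGAA, a form of the E2F sequence found in 4.21% of all promoters on either strand, 8 bases past the start (window in GRCr8, minus strand, match in capitals):
Cdkn2c: ctcggtcgtagGCGGGAAgttactggtgag

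*Cdkn2a*, whose locus encodes p16 and, from another reading frame, ARF, read higher in each preparation but by less than 2-fold on average. Its probe (rn4 chr5:108910777-108910836) read 8.44, 8.24 and 7.96 on the replicating arrays. On the quiescent arrays it read 7.26, 7.61 and 7.09. The groups did not overlap. The fit gave 0.89 on the log2 scale (1.86-fold, standard error 0.32), with 1.18, 0.63 and 0.87 by preparation. Its unadjusted p was 0.0359 and its adjusted p 0.475 in limma, so it missed the call on size and not on p. It was called under cyclic loess (1.01) and without preparation 2 (1.03), and was 0.42 with normexp values scaled to the 75th percentile. The files do not say whether the probe separates the p16 and ARF transcripts.

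*Cdkn2b* and *Cdkn2d*, for p15 and p19, gave no call. p15 is known as the INK4 protein induced by TGF-β. The brightest *Cdkn2b* probe (rn4 chr5:108936106-108936165) read 10.13, 10.46 and 9.59 on the replicating and 9.84, 12.11 and 9.17 on the quiescent arrays. Quiescent array 2 was here the highest, not the lowest, and alone set the direction. The log2 ratio was -0.31 (standard error 0.51, 95% interval -1.62 to 1.00) and turned to 0.36 without preparation 2. The other *Cdkn2b* probes, which the files list under other accessions, gave 0.46 and -0.07, and it was the only member whose probes differed in sign. The *Cdkn2d* probe, to which the files give no position, read 10.18, 9.97 and 10.43 on the replicating arrays. On the quiescent arrays it read 10.24, 9.87 and 9.06. Only preparation 3 differed by much: the log2 ratio was 0.47 (standard error 0.41, 95% interval -0.58 to 1.52), with -0.06, 0.11 and 1.37 in the preparations, and 0.03 without preparation 3.

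**Figure D2:**
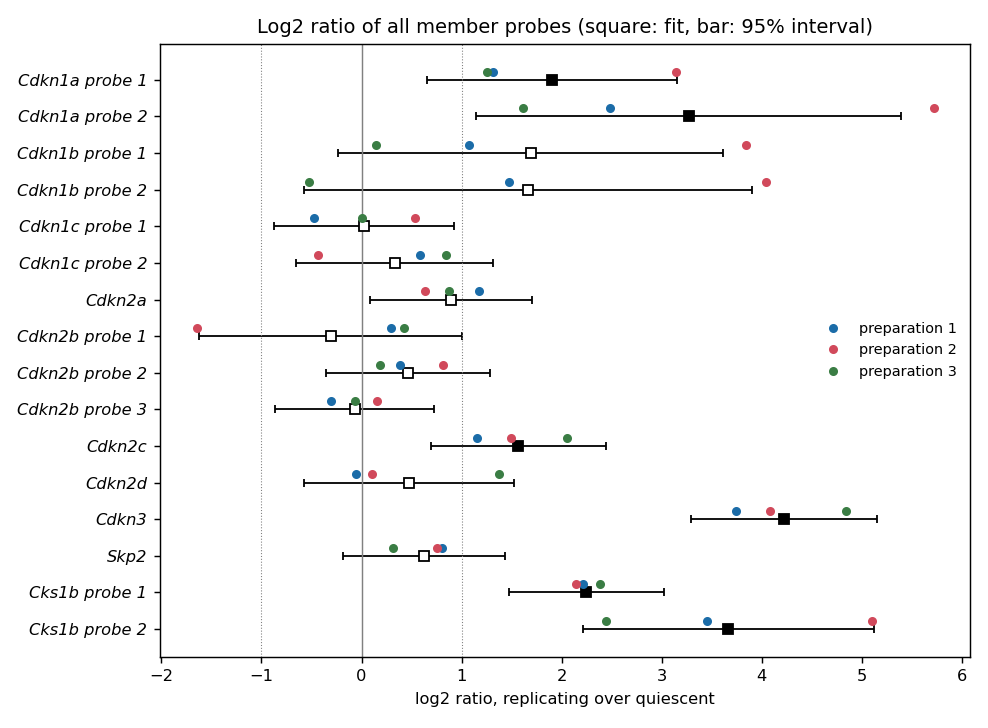
Log2 ratio, replicating over quiescent (x axis), of the 16 probes; squares are the limma fit with its 95% interval, filled where called, and coloured points are the 3 preparations. The 6 filled squares belong to *Cdkn1a*, *Cdkn2c*, *Cdkn3* and *Cks1b*, and preparation 2 lies far to the right for *Cdkn1a*, *Cdkn1b* and the second *Cks1b* probe.

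Among the CDKs and cyclins that these inhibitors bind, *Cdk1*, *Cks2* and the A-, B- and E-type cyclins were called, and *Cdk2*, *Cdk4*, *Cdk6* and the D-type cyclins were not. Of 13 such genes, *Cks2* included, 7 were called higher and 0 lower, against 4.24% and 4.69% of all genes. Their median log2 ratio was 1.26, against -0.13 over all genes. *Cdk1*, the mitotic kinase, had a ratio of 4.38 (standard error 0.42), and *Ccnb1*, its cyclin, 3.38 (standard error 0.31). *Cks2*, the paralogue of *Cks1b*, had a ratio of 4.01 (standard error 0.48). Other probes of *Cks2*, *Ccna2* and *Ccnb2* had 3.49, 2.52 and 2.34. *Ccna2* and *Ccnb2* had 2.71 and 2.44 on their brightest probes, and the E-type cyclins *Ccne1* and *Ccne2* had 2.09 and 1.26. Neither E-type cyclin was called without preparation 1 (2.07 and 0.89). The targets of the INK4 proteins were not called: *Cdk4* had 0.48 (standard error 0.40), *Cdk6* -0.36 (standard error 0.38, its other probes -0.02 and 0.28), *Ccnd1* -0.12 (its other probe 1.04), *Ccnd2* -0.56 and *Ccnd3* 0.90. *Cdk2*, the chief CIP/KIP target, had -0.18 (standard error 0.44). In the adjusted test of limma none of the 13 passed, the smallest adjusted p being 0.118 for *Ccnb1*.

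Of 19 genes for ubiquitin ligases and related factors that act on the inhibitors or on SKP2, 2 were called higher and 0 lower. Over all genes 4.24% were called higher and 4.69% lower. The median log2 ratio of the list was 0.52, against -0.13 over all genes. In preparations 1, 2 and 3 the list median was 0.56, 1.15 and -0.15. *Dtl*, the substrate receptor that brings p21 to the CUL4 ligase during S phase, read higher by 3.15 (standard error 0.31), with 3.19, 3.29 and 2.96 in the preparations. *Fbxo5*, for EMI1, which inhibits the APC/C complex that degrades SKP2, had a ratio of 1.88 (standard error 0.35). The shared parts of the SCF ligase were not called: *Skp1* had 0.36, *Cul1* 0.91 (its other probe -0.01) and *Rbx1* 0.38 (its other probe 1.04), and the ratio of *Rbx1* was below 0 in preparations 1 and 3. *Fzr1*, the APC/C activator for SKP2, had -0.24, and *Cdc20*, the activator for p21, -0.21. *Cul4a*, the scaffold of the CUL4 ligase, had -0.89 (standard error 0.30) and was below 0 in every preparation, but missed the call on size, and its other probe had 0.12.

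Among 27 transcriptional regulators of the inhibitor genes, 5 were called higher and 0 lower, against 4.24% and 4.69% of all genes. Their median was 0.62, against -0.13 over all genes. *Foxm1*, which is known to raise *Skp2* and *Cks1b* transcription, had 3.31 on its brightest probe and 0.46 on the other. *Rbl1* and *Ezh2* had 1.90 and 1.25, *Ezh2* being the methyltransferase of the Polycomb complex that represses *Cdkn2a*. *Id1* and *Rb1* had 1.75 and 1.47, but 0.95 and 0.96 without preparation 2, where neither was called. Without preparation 1 *Rbl1*, *Ezh2*, *Id1* and *Rb1* were not called, at 1.91, 1.14, 1.79 and 1.37. *Men1*, for menin, had -0.07 and *Bmi1*, of another Polycomb complex, 0.27 (its other probe 0.04), and neither was called. Of 10 kinases that phosphorylate CDK inhibitors, *Pim1* and *Pim2* were called higher, at 1.44 and 1.15, and 8 were not called. Without preparation 2 *Pim2* had 0.94 and was not called. Neither *Pim1* nor *Pim2* was called without preparation 1 (1.39 and 1.13). The medians of these regulators and kinases were near 0 in preparation 3 (0.01 and 0.00) but 1.26 and 1.07 in preparation 2.

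**Figure D3:**
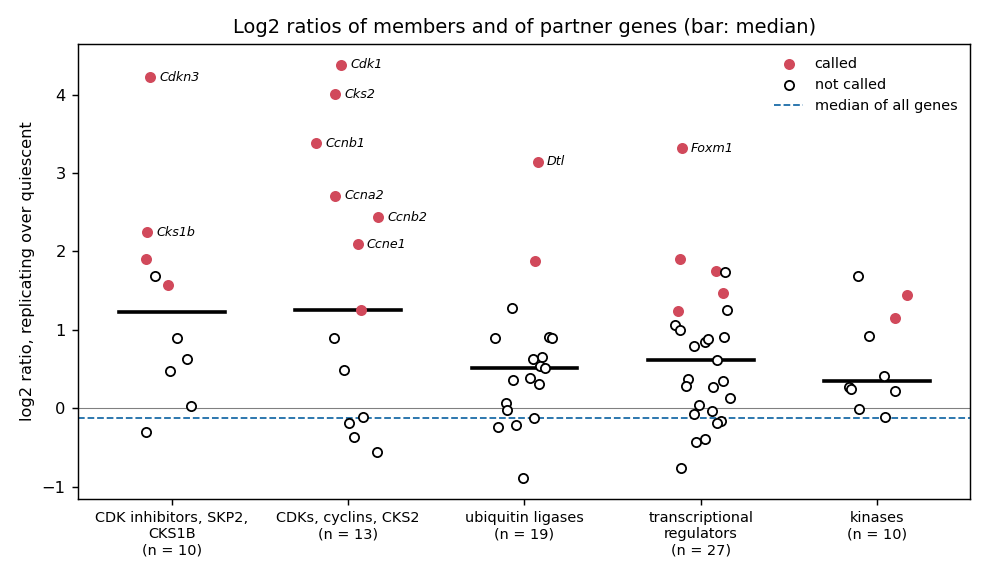
Log2 ratio, replicating over quiescent (y axis), of the 10 members and of 4 lists of partner genes; each point is the brightest probe of a gene, red where called, black bars are list medians and the dashed line is the median of all genes. No gene in any list was called lower, so called genes lie above 1 by the rule for a call.

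By the pattern over the 6 arrays, among 20948 other genes well above background on all of them, *Cdkn3* was most like *Mlf1*, *Plau* and *Ccnb1* (Pearson's r of 0.994 for each). *Cdkn2b*, the member with the lowest ratio, was most like *Cd72*, *Prmt7* and *Tnfaip8l3* (r of 0.994, 0.993 and 0.992). This *Cdkn2b* probe was highest on quiescent array 2 (12.11), the array on which its other probes were lowest. With 6 arrays and so many genes such values are a description only.

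Some markers of other cells also moved with the groups. Of 8 fibroblast and stellate cell markers 4 were called higher: *Col1a2*, *Col3a1*, *Col6a3* and *Vim*, with a median log2 ratio of 1.71 over the list. Their summed signal on the log2 scale was 13.76 to 15.29 on the replicating and 12.25 to 12.65 on the quiescent arrays. Of 6 alpha cell markers 2 were called higher, with a summed signal of 14.47 to 16.47 against 12.50 to 14.10. *Gcg* had a ratio of 2.39, and *Gc* had 1.86, or 0.98 and no call without preparation 2. Of 5 immune markers 2 were called higher (11.26 to 11.59 against 10.42 to 10.78), and *Ppy* had a ratio of 1.21. For delta cells 1 of 2 markers was called higher, *Sst*, with a ratio of 1.74, and the summed signal of the replicating arrays (10.13 to 10.44) lay above that of every quiescent array. Of 5 acinar markers *Prss1* was called higher, of 5 duct markers *Spp1*, and of 4 endothelial markers 0. Only 1 of the 5 duct markers had a ratio above 0, with a median of -0.23. Without preparation 1 the calls of *Vim*, *Gc*, *Sst*, *Ppy*, *Prss1* and the immune markers *Cd68* and *Cd74* were lost, at 0.88 to 2.10. *Col1a2*, *Col3a1*, *Col6a3*, *Gcg* and *Spp1* were still called there. Other calls were gained. Without preparation 2 *Col1a1* (2.45), *Sparc* (1.54) and *Lyz2* (1.21) were called higher and *Slc2a2* lower (-1.05). Without preparation 3 *Pecam1* and *Plvap* were called higher and *Cdh5*, *Cela1* and *Krt20* lower. The other probe of *Col1a1* had 3.68, and that of *Col6a3* 0.82. The acinar, duct and endothelial sums overlapped between the groups, and every marker looked up was well above background on at least 1 array. Of 9 β-cell markers on the array 8 were not called and *Mafa* was called lower, at -1.01, a call lost without preparation 1 or 3 (-0.89 and -0.87). The median of the 9 was -0.56 and 3 were above 0. *Ins1* and *Ins2* had 0.25 and 0.42, and *Pdx1*, *Slc2a2*, *Ucn3* and *Nkx6-1* had -0.76, -0.70, -0.60 and -0.56, the last without a value on quiescent array 2. All 9 were well above background on every array where they had a value. The part of other cells in the ratios of the CDK inhibitors was not tested, and in such sorted pools a smaller share of a cell type and less RNA per cell cannot be told apart.

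**Figure D4:**
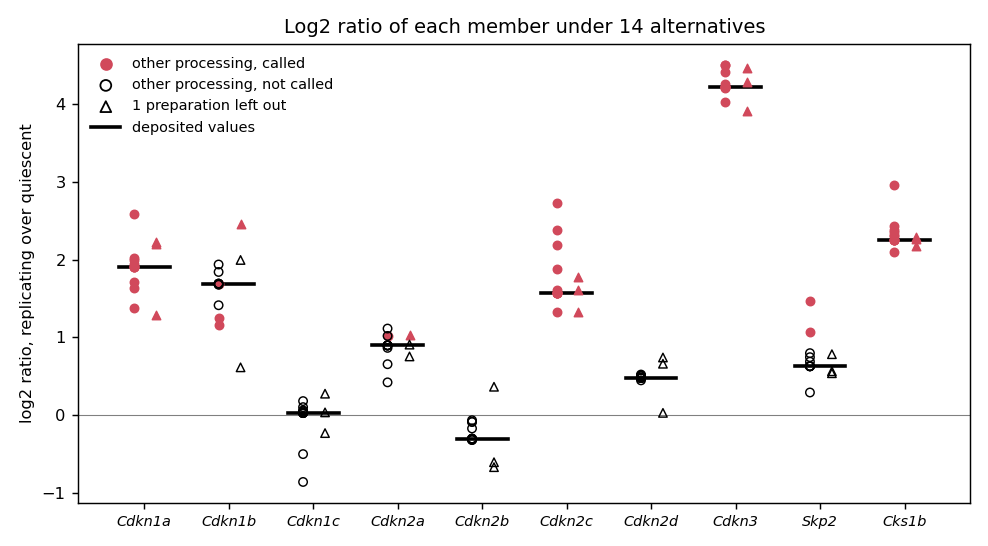
Log2 ratio, replicating over quiescent (y axis), of each member under 14 alternatives; circles are other processing, triangles leave out 1 preparation, filled symbols are called and black bars are the deposited values. *Cdkn1a*, *Cdkn2c*, *Cdkn3* and *Cks1b* were called throughout, and *Cdkn1c*, *Cdkn2b* and *Cdkn2d* under no alternative.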

How the data were processed

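Global gene expression was measured on 6 one-colour (Cy3) arrays on 1 slide. After a whole transcriptome amplification the authors extracted the spot intensity values with Agilent Feature Extraction 10.7.3.1 and corrected them by normexp (offset not given in the sources used here) before quantile normalization. The deposited log2 values of all spots were used here. Their scale and direction are known from the array files: on each array they had a Spearman's rho of 1 with normexp (offset 50) and quantile values computed here and differed by at most 0.12, and every array had a median of 8.32. The deposited Feature Extraction files also mark each spot as an outlier, as saturated or as well above background. Control spots and spots marked as outliers (252 to 1583 per array) were left out, and the spots of a probe averaged, giving 45598 probes. No spot was saturated, and no member value was missing. Genes carry the names in the array files, probe positions their build rn4. All probes were fitted with limma 3.58.1 (R 4.3.3, with version 1.17.8 of data.table), the paired design of the study being met by a term for the preparation, and p-values were adjusted over all of them by Benjamini-Hochberg. Figures used matplotlib 3.10.9 and pandas 2.3.3. The pairing comes from the labels and methods, and across probes the 2 arrays of a preparation deviated together from their groups with an r of 0.0561, 0.242 and 0.258. The share of probes well above background was 80.7% to 87.3% on the replicating arrays. On quiescent arrays 1, 2 and 3 it was 96.4%, 98.4% and 85.6%. The number of arrays limits the precision. The fit was tested on simulated data. The members, lists and tests were chosen with earlier results of these data known. Of the listed genes only *G6pc2* was not found by name. The genes named are all members, up to 6 called genes of each partner list by p, the proliferation check, and the 3 genes most like *Cdkn3* and *Cdkn2b*; *Ccne2* and the partner genes named without a call were chosen after their values were seen. Alternatives were normexp offsets of 50, 0 and 16, scaling to the 75th percentile, cyclic loess, a filter on dim probes, outlier spots kept, no block, an intensity trend, the median over a gene's probes, and each preparation left out. No slide block could be fitted, as all arrays shared 1 slide and scan. The value of 1 listed regulator is not reported here.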

Additional observations from a re-analysis of the deposited data

How the results depend on the processing

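*Cdkn1a*, *Cdkn2c*, *Cdkn3* and *Cks1b* were called under all 14 alternatives. The calls of *Cdkn1b*, *Cdkn2a* and *Skp2* changed: *Skp2* was called at offsets of 0 and 16, *Cdkn2a* with cyclic loess and without replicate 2, and *Cdkn1b* with normexp values at the 75th percentile (1.25), cyclic loess (1.16), an intensity trend (1.69) and without replicate 3 (2.46). *Cdkn1c* reversed to -0.86 with the processed signal and to -0.51 with normexp at the 75th percentile; leaving out a preparation gave it -0.23 (without replicate 2) to 0.27, and gave *Cdkn2b* -0.67 to 0.36 (without replicate 2). The median of the members was 1.70 and 1.45 with normexp at offsets of 0 and 16, 1.10 with the processed signal, 0.88 with normexp at the 75th percentile and 1.09 with cyclic loess. Leaving out a preparation gave it 0.84 to 1.26. The median over a gene's probes called 2351 genes, against 1148 called higher and 1271 lower by the brightest probes. Normexp at the 75th percentile called 7458 probes, against 3928. The counts were 581, 2260 and 10745 without preparations 1, 2 and 3, and 8, 16 and 27 for partner genes, against 16, of which 8, 3 and 0 lost their call; the processed signal called 10. At the adjusted p, 719, 204, 99, 61 and 84 probes passed with normexp at the 75th percentile, cyclic loess, no block, an intensity trend and without preparation 2. Without the replicate block 2757 probes and 4 members were called, and no call of a member changed. The cause of these differences was not tested. Dim probes, such as that of *Skp2*, limit what can be told.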
